A study of Homo sapiens with 12 samples.

Results

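Glycolysis and the transcriptional response to low oxygen were followed through 39 genes in RNA-seq of 2 human prostate cancer cell lines, with vehicle or with doxycycline (DOX) to switch on a short hairpin RNA against MUC1. The genes were taken by name, with no threshold on a measured value, and all 39 were found once each among the 58037 Ensembl identifiers in the count table. They comprise 3 subunits of the hypoxia-inducible factors (HIF1A, EPAS1, ARNT), 2 oxygen-sensing prolyl hydroxylases (EGLN1, EGLN3), 9 further hypoxia-responsive genes (VEGFA, NDRG1, CA9, CA12, ADM, ANKRD37, BNIP3, ANGPTL4, KDM3A), 3 collagen-modifying hydroxylases (P4HA1, P4HA2, PLOD2), 2 glucose transporters (SLC2A1, SLC2A3), 14 glycolytic enzymes (HK1, HK2, GPI, PFKL, PFKM, PFKP, ALDOA, ALDOC, TPI1, GAPDH, PGK1, PGAM1, ENO1, PKM), 2 glycolytic regulators (PFKFB3, PFKFB4) and 4 genes that act on pyruvate or lactate (LDHA, LDHB, PDK1, SLC16A3). DU-145 is an androgen-insensitive line, and LNCaP-AI is an androgen-independent derivative of the LNCaP line. According to the labels both were grown in phenol red-free medium with charcoal-stripped serum, whereas the study's methods give this medium for LNCaP-AI alone and ordinary serum for DU-145. Both carried the inducible tet-MUC1shRNA vector in every group. The 4 groups of 3 samples were DU-145 with vehicle, DU-145 kept for 7 days in DOX at 500 ng/ml, LNCaP-AI with vehicle and LNCaP-AI with the same DOX treatment. The labels name the vehicle samples shCTL and the DOX samples shMUC1, whereas the design text describes 1 vector with and without DOX. Because DOX-treated cells with a control hairpin were not analysed here, an action of DOX itself and silencing of MUC1 cannot be told apart.

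Total counts ranged from 10423437 to 13544153 in the DU-145 samples and from 16569613 to 26961777 in the LNCaP-AI samples. The 3 vehicle samples of DU-145 held 74, 60 and 59 MUC1 counts, and each DOX sample held 3. Counts in LNCaP-AI were 36, 25 and 52 for the vehicle group and 8, 6 and 3 for the DOX group, so the hairpin's target was lower with DOX in both lines. KLK3, KLK2 and FOLH1, markers of prostate luminal cells, were at 0 counts throughout DU-145 and at 1478 to 22813 in LNCaP-AI, and 3 leukocyte markers (PTPRC, CD3E, CD68) had at most 5 counts in any sample. Levels are given as CPM (counts scaled to a common library size), on a scale set over all 12 samples by TMM, a normalization that assumes most genes do not change. Fold changes are DOX over vehicle within a line unless stated otherwise, come from a separate fit of each comparison, and count as called where edgeR's quasi-likelihood test gave an adjusted p (Benjamini-Hochberg, over all genes tested) below 0.05.

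The hypoxia-inducible factors are pairs of an oxygen-regulated alpha subunit, such as HIF-1α from HIF1A or HIF-2α from EPAS1, and the constant partner ARNT. With oxygen present, prolyl hydroxylases of the EGLN family mark the alpha subunit for destruction, so these factors are controlled mainly at the protein level. When stabilised they bind short DNA elements and raise transcription of genes for glucose uptake, glycolysis, lactate export, acid-base balance and blood vessel growth. Many cancer cells run glycolysis at a high rate even with oxygen, and normal prostate epithelium is known for an unusual secretory metabolism. The transcripts measured here report neither protein nor flux.

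The promoters of the members were searched for the core letters of the hypoxia response element, ACGTG and GCGTG, each on both strands (CACGT and CACGC on the opposite strand), in RefSeq windows of GRCh38.p14 that reach from 250 bases before to 50 bases after a transcription start. Of the 39 members, 36 had at least 1 window, and the 3 without an entry were VEGFA, NDRG1 and SLC2A3. ACGTG stood in 37.5% of the 64 member windows and in 21.4% of all 35116 windows. GCGTG stood in 42.2% of the member windows and in 36.5% of all windows. Such a match is a description of letters and no test of binding. The sequences below belong to some of the members on which the comparison of the lines turns: LDHA fell with DOX in both lines, and DOX acted differently on ALDOC, CA12 and BNIP3 in the 2 lines. Each is the stretch before the start that lies outside annotated exons, on the gene's strand, with matches in capitals. A palindromic CACGTG holds ACGTG on both strands and counts as 2 matches.
LDHA, chr11:18394313-18394559, plus strand: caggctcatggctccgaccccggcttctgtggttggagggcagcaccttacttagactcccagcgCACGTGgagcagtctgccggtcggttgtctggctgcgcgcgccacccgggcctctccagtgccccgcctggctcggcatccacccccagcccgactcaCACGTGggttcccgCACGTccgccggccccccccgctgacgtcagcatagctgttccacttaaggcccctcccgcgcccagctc
ALDOC, chr17:28576949-28577145, minus strand: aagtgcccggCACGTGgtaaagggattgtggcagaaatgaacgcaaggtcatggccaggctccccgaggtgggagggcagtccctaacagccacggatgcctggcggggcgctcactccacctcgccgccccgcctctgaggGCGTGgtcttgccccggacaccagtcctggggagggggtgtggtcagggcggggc
CA12, chr15:63381847-63382096, minus strand: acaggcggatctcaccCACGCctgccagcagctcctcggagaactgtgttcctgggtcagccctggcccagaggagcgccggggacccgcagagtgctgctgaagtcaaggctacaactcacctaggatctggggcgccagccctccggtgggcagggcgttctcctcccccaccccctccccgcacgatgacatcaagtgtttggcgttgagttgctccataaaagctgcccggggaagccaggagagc
BNIP3, chr10:131981968-131982173, minus strand: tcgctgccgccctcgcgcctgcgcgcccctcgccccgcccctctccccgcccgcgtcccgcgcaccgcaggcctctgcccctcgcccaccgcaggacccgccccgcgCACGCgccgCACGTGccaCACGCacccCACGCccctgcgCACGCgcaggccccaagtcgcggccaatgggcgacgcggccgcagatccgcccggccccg
The LDHA stretch of 247 bases held 5 matches to ACGTG and 0 to GCGTG. The ALDOC stretch of 197 bases held 2 matches to ACGTG, both from 1 palindrome, and 1 to GCGTG. CA12 had 0 matches to ACGTG and 1 to GCGTG in 250 bases, and BNIP3 had 2 and 4 in 206 bases. Members not printed included some without matches. PGAM1, which also fell with DOX in both lines, had 0 and 0 in its only window. For PFKP, on which DOX also acted differently in the lines, the stretch of the first listed window had 0 and 0. Those of HK2 and PFKFB3, which differed likewise, had 1 and 1, and 0 and 1. Several of these genes had further listed windows. Window 2, counted over its full length, held 4 and 2 in HK2, 2 and 0 in PFKFB3, and 0 and 1 in LDHA. In PFKP, windows 2, 3 and 4 held 0 and 0, 1 and 0, and 0 and 3.

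In DU-145 cells, DOX raised the angiogenic and secreted hypoxia-responsive genes ADM, ANGPTL4 and VEGFA, and all 3 factor subunits, while lowering the glycolytic enzyme PGAM1, the lactate dehydrogenase subunit LDHA and the carbonic anhydrase CA12. Of the 36 members with enough counts to test, 17 rose, 8 fell and 11 were not called. Among all 13644 genes tested in this line 51.5% were called, 26.3% higher and 25.3% lower, so a call is common in this comparison. The share of members called was 69.4%, and their median log2 fold change was 0.18 beside 0.0006 over all genes. CA9, ANKRD37 and SLC2A3 were not tested in DU-145 because their counts were too low. The plot of fold changes by gene shows the larger DU-145 effects beside those of LNCaP-AI.

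**Figure D1:**
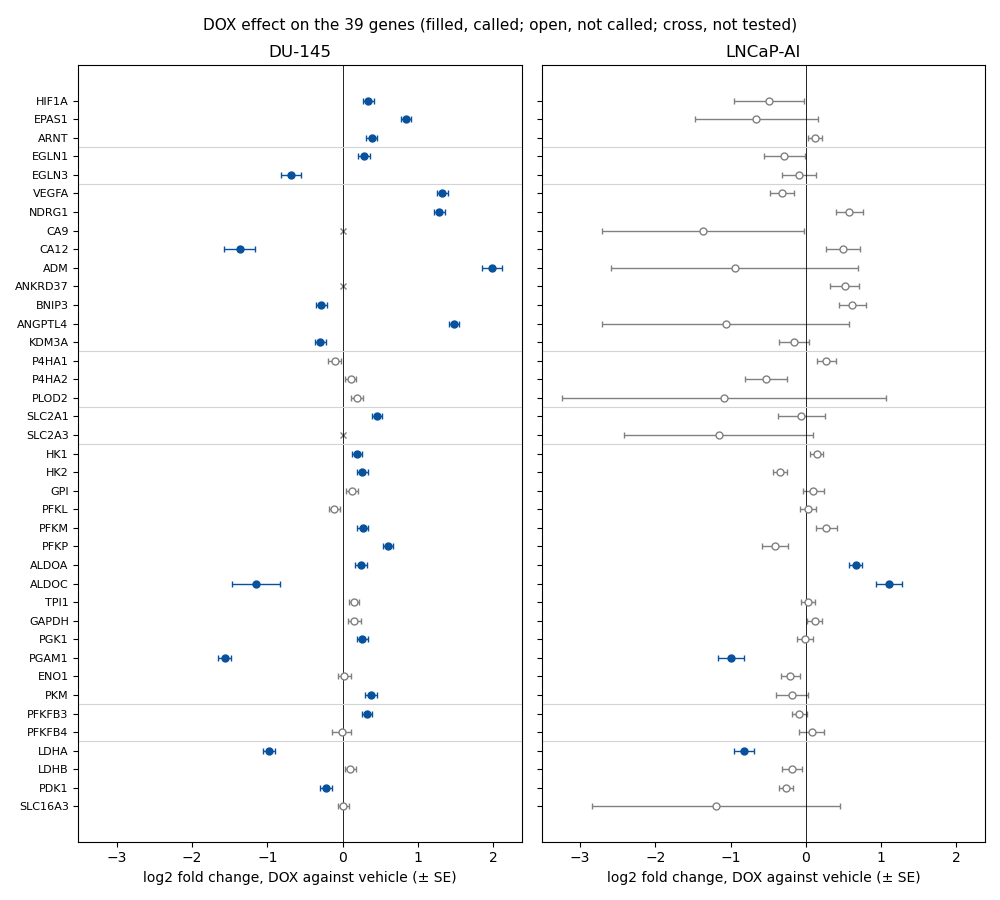
Log2 fold change with DOX for each of the 39 genes in DU-145 (left) and LNCaP-AI (right), grouped from top to bottom as factors, oxygen sensors, hypoxia-responsive genes, collagen hydroxylases, glucose transporters, glycolytic enzymes, glycolytic regulators and pyruvate genes; points are edgeR estimates and whiskers their SE. In DU-145 25 of 36 tested genes are called (filled), from PGAM1 at -1.57 to ADM at 1.98, whereas in LNCaP-AI 4 of 39 are called (ALDOA, ALDOC, PGAM1 and LDHA) and ADM, ANGPTL4, PLOD2 and SLC16A3 have the widest errors.

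All 3 factor subunits rose in DU-145. HIF1A (chromosome 14, 61695513 to 61748259, GRCh38, as are all gene positions here) was measured at 533, 505 and 515 CPM with vehicle and 708, 618 and 642 CPM with DOX, a log2 fold change of 0.34 (SE 0.0742, adjusted p = 7.44e-04). EPAS1 (chromosome 2, 46293667 to 46386697) stood at 154, 138 and 139 CPM with vehicle and at 270.4, 263 and 240.0 CPM with DOX, a log2 fold change of 0.85 (SE 0.0703, adjusted p = 1.02e-08). ARNT (chromosome 1, 150809713 to 150876708) went from 104, 104 and 104 CPM to 140.0, 135 and 132 CPM, a log2 fold change of 0.39 (SE 0.0672, adjusted p = 8.88e-05). For each of the 3 genes every DOX sample lay above every vehicle sample. The oxygen sensors moved in opposite directions. EGLN1, the main hydroxylase of HIF-1α, rose by a log2 fold change of 0.29 (SE 0.0780, adjusted p = 0.00473), and EGLN3, itself known to be induced by low oxygen, changed by -0.69 (SE 0.134, adjusted p = 2.53e-04), from 19.7, 14.2 and 19.6 CPM to 9.03, 12.2 and 11.9 CPM without overlap.

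Of the 7 hypoxia-responsive genes tested in DU-145, 4 rose and 3 fell. ADM (chromosome 11, 10305073 to 10307397), which encodes the vasodilator peptide adrenomedullin, increased from 4.90, 4.20 and 4.37 CPM to 18.8, 17.1 and 17.6 CPM, a log2 fold change of 1.98 (SE 0.132, adjusted p = 5.06e-10). ANGPTL4 (chromosome 19, 8363289 to 8374370), a secreted inhibitor of lipoprotein lipase, increased from 49.3, 48.6 and 50.7 CPM to 139, 142 and 134 CPM, a log2 fold change of 1.48 (SE 0.0697, adjusted p = 6.36e-12). VEGFA (chromosome 6, 43770184 to 43786487), the endothelial growth factor, had 176, 174 and 192 CPM with vehicle and 442, 466 and 453 CPM with DOX, a log2 fold change of 1.33 (SE 0.0693, adjusted p = 2.14e-11). The DOX samples of these 3 genes were close to one another and far above all vehicle samples. NDRG1 (chromosome 8, 133237175 to 133302022), a stress-responsive gene that androgens also induce, rose from 67.7, 60.7 and 61.1 CPM to 162, 156 and 144 CPM, a log2 fold change of 1.29 (SE 0.0724, adjusted p = 5.62e-11).

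The 3 hypoxia-responsive genes that fell in DU-145 were CA12, KDM3A and BNIP3. CA12 (chromosome 15, 63321378 to 63381846), a membrane carbonic anhydrase that helps to control pH outside the cell, was low in this line, at 6.21, 6.77 and 4.87 CPM with vehicle and 2.10, 2.48 and 2.27 CPM with DOX, a log2 fold change of -1.37 (SE 0.206, adjusted p = 1.82e-05). BNIP3 (chromosome 10, 131967684 to 131981967), which takes part in the removal of mitochondria, fell from 206, 175 and 200 CPM to 154, 162 and 163 CPM, a log2 fold change of -0.28 (SE 0.0676, adjusted p = 0.00188). Both groups of these genes were separate, although for BNIP3 the gap between the lowest vehicle and the highest DOX sample was small. KDM3A, a histone demethylase, changed by -0.30 (SE 0.0695, adjusted p = 0.00151). CA9 (chromosome 9, 35673928 to 35681159), a carbonic anhydrase widely used as a marker of hypoxia, had 0 counts in all 6 DU-145 samples, which allows up to 3 counts in each. ANKRD37 stayed below 1 CPM in each DU-145 sample. None of the 3 collagen-modifying hydroxylases was called by edgeR, with 1 at an unadjusted p under 0.05, and DESeq2 called PLOD2 higher; their log2 fold changes lay between -0.11 for P4HA1 and 0.19 for PLOD2.

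Among the glucose transporters and glycolytic enzymes of DU-145, most calls were modest increases, and PGAM1 and ALDOC went the other way. SLC2A1 (chromosome 1, 42925353 to 42958893), which encodes the glucose transporter GLUT1, rose from 244, 236 and 241 CPM to 351, 325 and 315 CPM, a log2 fold change of 0.46 (SE 0.0692, adjusted p = 1.69e-05). SLC2A3 (chromosome 12, 7919230 to 8019007), which encodes GLUT3, did not exceed 0.165 CPM in any DU-145 sample. Of the 14 glycolytic enzymes 7 rose, 2 fell and 5 were not called. PFKP (chromosome 10, 3066333 to 3137718), the platelet-type isoform of phosphofructokinase at the committed step of glycolysis, rose from 369, 343 and 325 CPM to 537, 538 and 500 CPM, a log2 fold change of 0.60 (SE 0.0710, adjusted p = 9.12e-07). HK2 (chromosome 2, 74834127 to 74893359), a hexokinase isoform typical of tumour cells, rose from 55.4, 46.4 and 50.3 CPM to 62.5, 64.2 and 55.9 CPM, a log2 fold change of 0.26 (SE 0.0786, adjusted p = 0.00865). The PFKP groups did not overlap, while the lowest HK2 DOX sample lay just above the highest vehicle sample. PKM (pyruvate kinase), PFKM, PGK1 and HK1 rose by 0.38, 0.27, 0.26 and 0.20 on the log2 scale. GPI, PFKL, TPI1, GAPDH and ENO1 were not called, with log2 fold changes from -0.11 to 0.16.

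PGAM1 (chromosome 10, 97426191 to 97433444), which encodes phosphoglycerate mutase, showed the largest decrease of any member in DU-145. It was measured at 152, 164 and 134 CPM with vehicle and 55.00, 46.6 and 50.6 CPM with DOX, a log2 fold change of -1.57 (SE 0.0901, adjusted p = 7.60e-11), so each DOX sample had less than the lowest vehicle sample. The aldolase isoforms moved in opposite directions. ALDOA (chromosome 16, 30064164 to 30070457), the main aldolase of most cells, went from 2040.0, 1881 and 1854 CPM to 2248, 2421 and 2191 CPM, a log2 fold change of 0.25 (SE 0.0791, adjusted p = 0.0131). ALDOC (chromosome 17, 28573115 to 28576948), the aldolase known from brain, had only 1.797, 2.00 and 2.64 CPM with vehicle and 0.821, 0.774 and 1.31 CPM with DOX, a log2 fold change of -1.15 (SE 0.318, adjusted p = 0.00527). Neither pair of groups overlapped, but the ALDOC values rested on few counts. Without vehicle 3 or without DOX 2 the ALDOA call was lost, at adjusted p of 0.0690 and 0.0650. The regulator PFKFB3, which makes an activator of phosphofructokinase, rose by 0.32 (SE 0.0650, adjusted p = 4.02e-04), and PFKFB4 was not called at -0.01.

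At the end of the pathway, LDHA fell in DU-145 while LDHB was not called. LDHA (chromosome 11, 18394560 to 18408425), the lactate dehydrogenase subunit that favours lactate production and whose promoter is printed above, was measured at 1902, 1906 and 1867 CPM with vehicle and 1004, 924 and 949 CPM with DOX, a log2 fold change of -0.98 (SE 0.0778, adjusted p = 5.45e-09). LDHB (chromosome 12, 21635342 to 21757857), the alternative subunit, was at 697, 693 and 695 CPM with vehicle and 791, 716 and 733 CPM with DOX, a log2 fold change of 0.10 (SE 0.0733, adjusted p = 0.255). The LDHA groups were far apart, and the LDHB groups were separate but near each other. PDK1 (chromosome 2, 172555373 to 172608669), a kinase that restrains pyruvate entry into mitochondria, was lower, from 44.04, 42.6 and 43.7 CPM to 34.3, 37.9 and 39.3 CPM, a log2 fold change of -0.22 (SE 0.0785, adjusted p = 0.0224). The PDK1 call was lost without DOX 1 or DOX 2, at adjusted p of 0.103 and 0.0509 (edgeR), and at 0.0576 without a filter on low counts. SLC16A3, which encodes the lactate exporter MCT4, was not called at 0.01. As a share of all counts, the 14 glycolytic enzymes together took 1.23 to 1.32% with vehicle and 1.43 to 1.46% with DOX in this line.

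The DU-145 calls depended on which samples set the spread. When all 12 samples entered 1 fit, 6 members rose and 5 fell, and of the genes described in full HIF1A, EPAS1, ADM, ANGPTL4, SLC2A1, HK2, BNIP3 and PDK1 lost their calls at adjusted p of 0.0613 to 0.569 with nearly the same fold changes.

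In the LNCaP-AI samples the largest differences among the members did not follow the treatment. The first principal component of log2 CPM held 82.5% of the variance and set vehicle 1, DOX 2 and DOX 3 apart from a second set made up of DOX 1, vehicle 2 and vehicle 3. For 18 of the 39 members all of vehicle 2, vehicle 3 and DOX 1 lay above all of the other 3 samples, and for 3 members all lay below. Over all 16030 genes tested these shares were 21.8% above and 12.7% below, against 46.2% and 7.69% of the members. Since the component was computed from the same counts, these shares are a description. The plot of LNCaP-AI samples by side shows the division for 9 members.

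**Figure D2:**
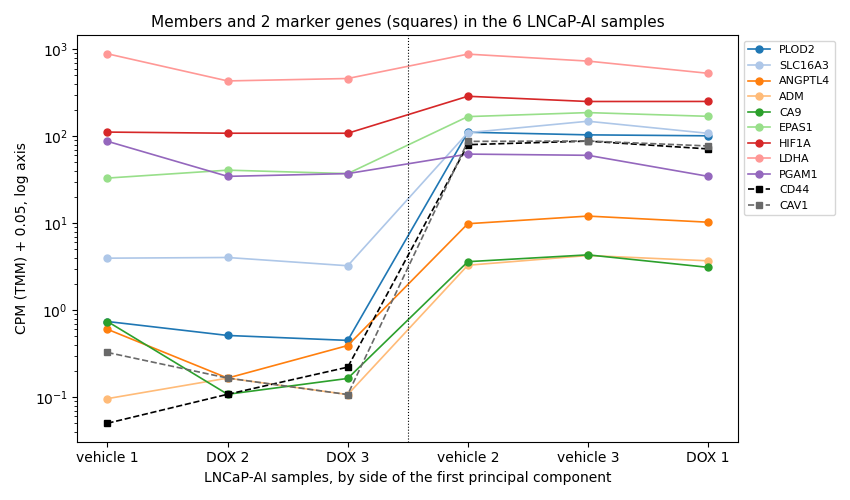
CPM plus 0.05 (log axis) of 9 members (circles, solid lines) and of the marker genes CD44 and CAV1 (squares, dashed lines) in the 6 LNCaP-AI samples, ordered by side of the first principal component (dotted line). PLOD2, SLC16A3, ANGPTL4, ADM and CA9 are far higher in vehicle 2, vehicle 3 and DOX 1, as are CD44 and CAV1, while LDHA and PGAM1 are lower in the DOX samples of either side.

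PLOD2, which encodes a collagen lysyl hydroxylase, had 0.690, 111 and 104 CPM with vehicle and 101, 0.461 and 0.399 CPM with DOX. SLC16A3 had 3.91, 109.8 and 149 CPM with vehicle and 108, 3.98 and 3.19 CPM with DOX. Both genes were thus near 0 or low in the same 3 samples, 1 of them with vehicle. ANGPTL4 was at 0.552, 9.80 and 12.01 CPM with vehicle and 10.2, 0.115 and 0.342 CPM with DOX. ADM was at 0.0460, 3.23 and 4.20 CPM with vehicle and 3.64, 0.115 and 0.0569 CPM with DOX. CA9, absent from DU-145, was at 0.690, 3.56 and 4.27 CPM with vehicle and 3.06, 0.0577 and 0.114 CPM with DOX. For all 3 the treatment groups overlapped, and none was called. SLC2A3 showed the same order at 0.0460, 0.539 and 0.876 CPM with vehicle and 0.544, 0.0577 and 0 CPM with DOX. Its counts are uncertain because its near-identical copies together held up to 8 counts in a sample. Its own counts were 10, 24 and 13 in vehicle 2, vehicle 3 and DOX 1. The copies reached 200% of its own counts only where these were 2 or fewer.

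The factor subunits divided likewise. HIF1A was at 112, 288 and 251 CPM with vehicle and 251, 108 and 108 CPM with DOX, a log2 fold change of -0.48 (SE 0.466, adjusted p = 0.534). EPAS1 was at 32.96, 168 and 187 CPM with vehicle and 169, 40.6 and 37.1 CPM with DOX, a log2 fold change of -0.66 (SE 0.823, adjusted p = 0.635). The samples fell into a high and a low set for both genes, each set holding vehicle and DOX samples. ARNT did not divide in this way, at 76.3, 77.5 and 72.5 CPM with vehicle and 77.6, 85.2 and 84.6 CPM with DOX, a log2 fold change of 0.12 (SE 0.0888, adjusted p = 0.411). SLC2A1 was at 53.5, 94.3 and 109.8 CPM with vehicle and 112, 68.6 and 66.8 CPM with DOX, a log2 fold change of -0.06 (SE 0.311, adjusted p = 0.903), again high in vehicle 2, vehicle 3 and DOX 1.

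Marker genes fixed for DU-145 and for other cell types moved with this division. CD44 had 0, 1483 and 2405 counts across LNCaP-AI vehicle 1 to 3 and 1706, 1 and 3 across DOX 1 to 3, and CAV1 had 6, 1617 and 2412 and 1845, 2 and 1 counts. The third DU-145 marker, VIM, had 509 to 1280 counts and did not divide in this way. The summed level of the 3 DU-145 markers ranged from 28.1 to 208 CPM with vehicle and from 56.6 to 202 CPM with DOX in LNCaP-AI, beside 1121 to 1651 CPM in DU-145. Of the 3 endothelial markers PECAM1 had 36, 72 and 62 counts in vehicle 2, vehicle 3 and DOX 1 and at most 1 count in the others, CDH5 had at most 1 count in any LNCaP-AI sample, and VWF had 52 to 151 counts without following the division. Of the 4 fibroblast markers DCN had 18 to 20 counts on that side and at most 2 on the other, LUM and COL3A1 had at most 15 counts, and COL1A1 had 309 to 661 counts on both sides. The luminal marker FOLH1 was at 12428 counts or more in each LNCaP-AI sample, with 549.7 to 869 CPM in the vehicle group and 955 to 1198 CPM in the DOX group. The part of these markers in the members' values was not tested. In bulk samples, fewer cells of a type and less RNA per cell cannot be told apart.

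Against this spread, DOX called 4 members in LNCaP-AI: ALDOA and ALDOC rose, and PGAM1 and LDHA fell. All 39 members were tested, so 10.3% were called, beside 12.7% of the 16030 genes tested, with 7.22% higher and 5.52% lower. Members had a median log2 fold change of -0.16, beside -0.05 for all genes. ALDOA went from 936, 867 and 1035 CPM with vehicle to 1522, 1521 and 1473 CPM with DOX, a log2 fold change of 0.66 (SE 0.0851, adjusted p = 0.0132). ALDOC went from 30.4, 21.9 and 22.3 CPM to 46.99, 55.4 and 59.2 CPM, a log2 fold change of 1.10 (SE 0.175, adjusted p = 0.0180). For both aldolases every DOX sample lay above every vehicle sample on either side of the division. PGAM1 fell from 87.3, 62.2 and 60.3 CPM to 34.5, 34.5 and 37.1 CPM, a log2 fold change of -0.99 (SE 0.171, adjusted p = 0.0214). LDHA fell from 886, 879 and 731 CPM to 529, 432 and 461 CPM, a log2 fold change of -0.82 (SE 0.130, adjusted p = 0.0180). Neither gene's groups overlapped.

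**Figure D3:**
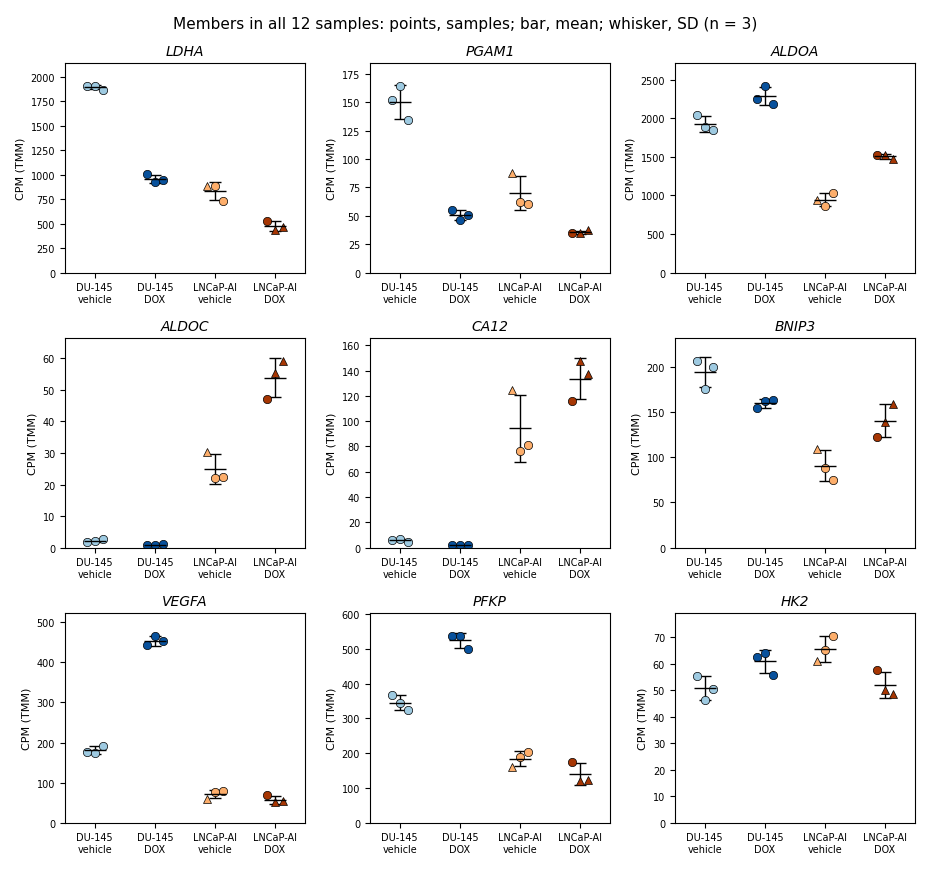
CPM of 9 members in the 12 samples, 3 per group; points are samples (triangles mark LNCaP-AI vehicle 1, DOX 2 and DOX 3), bars are group means and whiskers the SD (n = 3), and each panel has its own axis from 0. LDHA and PGAM1 are lower with DOX in both lines, ALDOA is higher in both, ALDOC is higher with DOX in LNCaP-AI and near 1 CPM with DOX in DU-145, and VEGFA and PFKP are higher with DOX in DU-145 and lower on average in LNCaP-AI.

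The 4 changes had the same direction within each side of the division. They are given here as log2 ratios of mean CPM, with 0.1 CPM added to each mean, without a test. Between vehicle 1 and DOX 2 with DOX 3 they were 0.68 for ALDOA, 0.91 for ALDOC, -1.28 for PGAM1 and -0.99 for LDHA. Between vehicle 2 with vehicle 3 and DOX 1 they were 0.68, 1.08, -0.83 and -0.61 in the same order. Of the 39 members 30 (76.9%) had the same sign within both sides, beside 77.9% of all genes tested. The calls were less firm than these directions. All 4 were lost without DOX 2 or without DOX 3, at adjusted p of 0.0847 to 0.110 and 0 members called, with 7 members at an unadjusted p under 0.05 in each case. Without DOX 1, 5 members were called lower, and without vehicle 1, 5 were called higher.

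None of the remaining members was called in LNCaP-AI by edgeR. Of the 9 hypoxia-responsive genes 0 were called, 3 had an unadjusted p under 0.05, and DESeq2 called NDRG1 and BNIP3 higher. NDRG1 was at 40.5, 63.4 and 59.7 CPM with vehicle and 88.8, 81.7 and 74.8 CPM with DOX, a log2 fold change of 0.58 (SE 0.177, adjusted p = 0.0848). BNIP3 was at 108, 88.1 and 75.2 CPM with vehicle and 123, 139 and 159 CPM with DOX, a log2 fold change of 0.62 (SE 0.179, adjusted p = 0.0727). Neither gene's groups overlapped. CA12 was at 124, 76.6 and 81.4 CPM with vehicle and 116, 148 and 138 CPM with DOX, a log2 fold change of 0.49 (SE 0.220, adjusted p = 0.189), with DOX 1 below vehicle 1. VEGFA was at 58.98, 77.2 and 78.8 CPM with vehicle and 69.2, 50.4 and 53.5 CPM with DOX, a log2 fold change of -0.32 (SE 0.161, adjusted p = 0.238). Its groups overlapped as well. Among the 3 factor subunits, the 2 oxygen sensors, the 3 collagen hydroxylases, the 2 glucose transporters and the 2 regulators, edgeR called 0, with 0 at an unadjusted p under 0.05, and DESeq2 called 0.

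Of the enzymes and pyruvate genes not called by edgeR, HK2 was at 60.9, 65.02 and 70.5 CPM with vehicle and 57.6, 50 and 48.4 CPM with DOX, a log2 fold change of -0.34 (SE 0.0950, adjusted p = 0.0673), and DESeq2 called it lower. PFKP was at 160.4, 190.0 and 202 CPM with vehicle and 176, 119 and 123 CPM with DOX, a log2 fold change of -0.41 (SE 0.169, adjusted p = 0.161). The HK2 groups were separate, and the PFKP groups overlapped through vehicle 1 and DOX 1. PDK1 was at 55.9, 65.2 and 57.2 CPM with vehicle and 51.2, 48.2 and 50.4 CPM with DOX, a log2 fold change of -0.26 (SE 0.0959, adjusted p = 0.128). LDHB was at 1078, 1153 and 1147 CPM with vehicle and 1201, 912 and 881 CPM with DOX, a log2 fold change of -0.18 (SE 0.132, adjusted p = 0.402). DOX values of PDK1 lay below all vehicle values, whereas DOX 1 was the highest LDHB sample of the line. The 14 glycolytic enzymes took 0.995 to 1.09% of all counts with vehicle and 1.00 to 1.15% with DOX.

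The difference between the lines in the effect of DOX was taken as the interaction term of a fit to the 12 samples together. The effect was higher in LNCaP-AI for CA12, BNIP3, ALDOA and ALDOC and lower for VEGFA, HK2, PFKP and PFKFB3. These 8 of 39 members were 20.5%, beside 9.18% of 16800 genes tested (5.43% higher and 3.76% lower). The widest gap was that of ALDOC, with a difference of log2 fold changes of 2.29 (SE 0.315, adjusted p = 0.00243): its DOX samples were above vehicle in LNCaP-AI and below it in DU-145. For CA12 the difference was 1.91 (SE 0.295, adjusted p = 0.00400), and for VEGFA -1.62 (SE 0.183, adjusted p = 0.00102). CA12 fell in DU-145 and was not called in LNCaP-AI, and VEGFA rose in DU-145 and was not called in LNCaP-AI. The differences for PFKP and BNIP3 were -0.98 (SE 0.196, adjusted p = 0.0131) and 0.94 (SE 0.191, adjusted p = 0.0142). For ALDOA, which rose in both lines, the difference was 0.45 (SE 0.0980, adjusted p = 0.0194). That call was lost at adjusted p of 0.0509 without DU-145 DOX 3, 0.0578 without LNCaP-AI DOX 2 and 0.132 without a filter on low counts. For HK2 the difference was -0.57 (SE 0.128, adjusted p = 0.0212), with adjusted p of 0.0560 to 0.0667 in the 5 fits without DU-145 vehicle 3, DOX 1 or DOX 2 or LNCaP-AI DOX 2 or DOX 3, and PFKFB3 had the smallest at -0.37 (SE 0.104, adjusted p = 0.0488).

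The decrease of LDHA did not differ detectably between the lines, with an interaction of 0.19 (SE 0.141, adjusted p = 0.433). For PGAM1 the interaction was 0.61 (SE 0.204, adjusted p = 0.0894), and DESeq2 called it at an adjusted p of 0.0434. ADM and ANGPTL4 had the largest differences in size among the hypoxia-responsive genes, -2.88 and -2.47, and neither was called (adjusted p = 0.298 and 0.336). Mean CPM of these genes in LNCaP-AI was far higher in vehicle 2, vehicle 3 and DOX 1 than in the other 3 samples. The ratios were 21.9 and 24.7 with 0.1 CPM added to each mean. That addition is near the level of ADM in the other 3 samples, 0.0460 to 0.115 CPM, and so lowers its ratio. LNCaP-AI DOX 1 was the sole DOX sample on its side. Without it the interaction called a lower DOX effect in LNCaP-AI than in DU-145 for 15 of 38 members tested. Over all genes this held for 2045 of 16296. The differences for ADM and ANGPTL4 became -6.70 and -6.43.

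Without DOX the lines differed in most members. DU-145 vehicle samples were compared with LNCaP-AI vehicle samples, and line and preparation of the libraries cannot be told apart in this comparison. Of 38 members tested, 21 were higher in DU-145 and 9 lower, beside 65.1% of 15628 genes called (30.2% higher and 35% lower in DU-145). The lactate dehydrogenases stood in opposite order: LDHA was higher in DU-145 by 1.30 (SE 0.113, adjusted p = 7.28e-05) on the log2 scale, and LDHB was lower by a log2 value of -0.58 (SE 0.0831, adjusted p = 7.29e-04). All 3 collagen hydroxylases, both oxygen sensors and both regulators were higher in DU-145, with PFKFB3 at 1.78 (SE 0.0926, adjusted p = 1.01e-05) and EGLN3 at 1.73 (SE 0.217, adjusted p = 3.82e-04). HIF1A was higher at 1.37 (SE 0.317, adjusted p = 0.00688), and EPAS1 was not called at 0.27. CA12, ALDOC and PFKM were lower in DU-145, at -3.87 (SE 0.244, adjusted p = 2.09e-05), -3.41 (SE 0.229, adjusted p = 2.59e-05) and -1.58 (SE 0.129, adjusted p = 5.42e-05), respectively. CA9 was called lower in DU-145 (adjusted p = 0.00841), where its counts were 0. PLOD2, higher in DU-145 at 4.16 (SE 1.29, adjusted p = 0.0241), had 1001 CPM or more in each DU-145 vehicle sample and 0.690 CPM in LNCaP-AI vehicle 1.

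Levels of different genes were compared per kilobase of annotated exon, as CPM per kb in the vehicle groups (mean ± SD, n = 3). GAPDH was the most abundant member in both lines, at 926 ± 54.8 CPM per kb in DU-145 and 724 ± 39.5 in LNCaP-AI. ENO1 followed with 568 ± 21.2 and 393 ± 28.2. LDHA had 314 ± 3.60 CPM per kb in DU-145 and LDHB 233 ± 0.695, while in LNCaP-AI LDHA had 138 ± 14.6 and LDHB 378 ± 13.9. With DOX LDHA was at 159 ± 6.84 and LDHB at 250.3 ± 13.1 CPM per kb in DU-145. In LNCaP-AI DOX gave 78.7 ± 8.26 and 335 ± 59.1. The order of the subunits in DU-145 with DOX depended on the length scaling, which used all annotated exons, 6.03 kb for LDHA and 2.98 kb for LDHB. Without it LDHA stayed above LDHB there, at means of 959 and 747 CPM. Among phosphofructokinases PFKP led in DU-145 at 44.5 ± 2.85 CPM per kb, ahead of PFKL at 11.5 ± 0.911 and PFKM at 8.88 ± 0.403. In LNCaP-AI, PFKM at 28.9 ± 4.78 and PFKP at 23.7 ± 2.75 differed by about the spread of PFKM. ALDOC was at 0.822 ± 0.168 CPM per kb in DU-145 and 9.53 ± 1.84 in LNCaP-AI, far below ALDOA at 503 ± 26.4 and 247 ± 22.1. The plot of length-scaled levels places each gene by both lines.

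**Figure D4:**
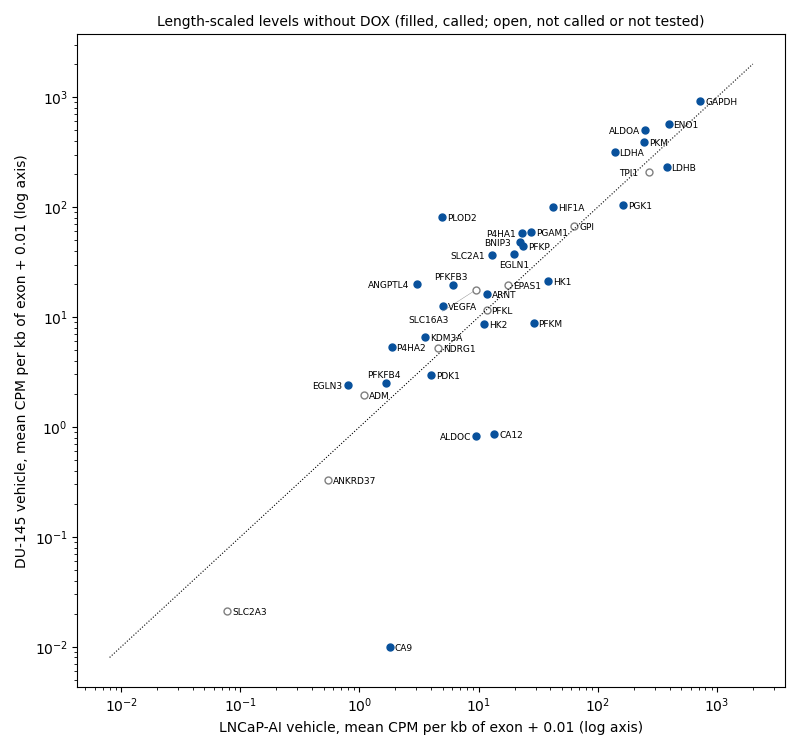
Mean CPM per kb of exon plus 0.01 in LNCaP-AI vehicle (x) and DU-145 vehicle (y) samples, n = 3 each, both on log axes; each point is 1 of the 39 genes, filled where the lines differed in the edgeR test, and the dotted line marks equal levels. PLOD2, ANGPTL4 and HIF1A lie above the line, CA9, CA12, ALDOC and PFKM below it, and GAPDH at the top right has the highest level in both.

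Further genes of these pathways were counted from 3 lists. Of 34 other HIF pathway genes 32 were tested in DU-145, where 15 rose and 7 fell, and in LNCaP-AI 2 of 32 rose (FAM162A and HMOX1) and 2 fell (STC2 and TFRC). Their median log2 fold changes were 0.13 in DU-145 and -0.13 in LNCaP-AI. Of 26 other glycolysis and lactate genes 13 were tested in DU-145, with 2 higher and 4 lower, and 16 in LNCaP-AI, with 2 higher and 0 lower. Of 29 genes of pyruvate entry, the pentose phosphate pathway and glycogen, 13 rose and 5 fell in DU-145, whereas in LNCaP-AI 5 of the 28 tested rose and 0 fell. The called shares in DU-145 were 68.8%, 46.2% and 62.1%, beside the 51.5% of all genes given above, and those in LNCaP-AI were 12.5%, 12.5% and 17.9%, beside 12.7%. HMOX1, which encodes the haem-degrading oxygenase, was the only gene of the 3 lists called in both lines with a log2 fold change of at least 1 in size in either. It went from 42.8, 41.4 and 40.4 CPM to 27.4, 27.6 and 26.8 CPM in DU-145, a log2 fold change of -0.61 (SE 0.0797, adjusted p = 3.65e-06). In LNCaP-AI it went from 11.9, 8.40 and 9.20 CPM to 20, 26.3 and 27.8 CPM, a log2 fold change of 1.32 (SE 0.206, adjusted p = 0.0178). The groups were separate in both lines, in opposite directions.

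Several members have processed pseudogenes that could take some of their reads. GAPDH had 65 such copies in the table, BNIP3 44, PGAM1 14 and LDHA 6. Summed over the copies, counts reached at most 0.385% of those of GAPDH, 2.67% of those of BNIP3, 4.15% of those of PGAM1 and 1.65% of those of LDHA in any sample. The called changes of BNIP3, PGAM1 and LDHA were larger than such shares.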

How the data were processed

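Total RNA from triplicate cultures was prepared with a stranded mRNA library kit. The authors aligned the reads with STAR 2.7.0 (CASAVA 1.8.2 before it) to GRCh38.p7 and deposited raw counts per Ensembl gene for 12 samples, without normalization; they used DESeq2 1.24.0 for their own tests. The counting program and its strand setting are not given in the sources used here. Vehicle and DOX groups followed the sample titles.

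From these counts, identifiers were matched without their version to GENCODE 44 (56948 of 58037 matched), which also gave exon lengths and GRCh38 positions. The genes tested, which needed 10 counts or more in 3 or more of the samples compared, were fitted with edgeR 4.0.16 (R 4.3.3), using TMM factors, quasi-likelihood tests and Benjamini-Hochberg adjustment over all genes, called at 0.05. Each line, the vehicle groups and the interaction (all 12 samples) were fitted separately; no library batch is named in the labels. The steps were tested on simulated data with a fixed spread and no division among samples. That simulation therefore does not bear on the divided LNCaP-AI samples. Alternatives were DESeq2 1.42.0, other scaling, other filters, a replicate block, 1 fit of all 12 samples and leaving out each sample. Same-numbered samples did not deviate together: correlations were 0.127, -0.0912 and 0.0763 in DU-145 and -0.940, -0.812 and -0.840 in LNCaP-AI. No pair of libraries of a group agreed within sampling noise. Each SE of a fold change was derived as the absolute log2 fold change divided by the square root of the test's F statistic. Such SE values and the SD include the spread between samples. The upper limit given for CA9 counts in DU-145 covers counting error only.

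The members and lists were chosen with earlier results of these data known. Described in full, with every sample's value, were up to 8 called members with the largest fold change in each DOX comparison, up to 5 in the interaction, and HIF1A, EPAS1, ARNT, VEGFA, CA9, CA12, SLC2A1, SLC2A3, HK2, LDHA, LDHB and PDK1. Beside them MUC1 was named, and listed genes called in both lines with a log2 fold change of at least 1 in size in either.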

Additional observations from a re-analysis of the deposited data

Results flagged for a closer look

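For 8 of the 39 genes the effect of DOX differed between the lines in edgeR's interaction test, stated as the log2 effect in LNCaP-AI minus that in DU-145. The effect was higher in LNCaP-AI for ALDOC by 2.29 (adjusted p = 0.00243), from log2 fold changes of 1.10 in LNCaP-AI and -1.15 in DU-145. For CA12 the difference was 1.91 (adjusted p = 0.00400), from 0.49 and -1.37. For BNIP3 it was 0.94 (adjusted p = 0.0142), from 0.62 and -0.28. For ALDOA it was 0.45 (adjusted p = 0.0194), from 0.66 and 0.25. The effect was lower in LNCaP-AI for VEGFA at -1.62 (adjusted p = 0.00102), from -0.32 and 1.33. PFKP had a difference of -0.98 (adjusted p = 0.0131), from -0.41 and 0.60. HK2 had -0.57 (adjusted p = 0.0212), from -0.34 and 0.26, and PFKFB3 had -0.37 (adjusted p = 0.0488), from -0.09 and 0.32. In LNCaP-AI, VEGFA and PFKP were also higher in vehicle 2, vehicle 3 and DOX 1 than in the other 3 samples, and CA12 was lower there. The part of that division in the differences was not tested.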

How the results depend on the processing

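In DU-145, 17 members rose and 8 fell; 1 fit of all 12 samples called 6 higher and 5 lower, and leaving out each sample gave 16 to 18 higher and 7 to 9 lower. In LNCaP-AI, 2 rose and 2 fell; DESeq2 and the fit of all 12 samples each called 4 higher, and leaving out each sample gave 0 to 5 higher and 0 to 5 lower. Over all genes, edgeR called 2043 in LNCaP-AI, 1 without DOX 2 or without DOX 3 (3204 and 3201 at an unadjusted p under 0.05), 3538 without DOX 1, 1096 and 994 without vehicle 2 and vehicle 3, and 3517 were called by DESeq2. In DU-145 it called 7033, and 4083 in the fit of all 12 samples. In the interaction, 4 members were higher and 4 lower; without a filter 2 were lower, and leaving out each sample gave 2 to 15 lower, the 15 without LNCaP-AI DOX 1. Over all genes the interaction gave 1543 calls, 884 without a filter and 737 to 3471 when each sample was left out. HK2 in the interaction lost its call without a filter and in 5 of the leave-outs. The comparison of vehicle samples kept 21 and 9 within 1.5 times in all alternatives run.

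With the replicate number as a replicate block, 0 members were called higher and 0 lower in LNCaP-AI (5 at an unadjusted p under 0.05) and 0 and 0 in the interaction (10 at an unadjusted p under 0.05); over all genes the block left 0 calls in LNCaP-AI (2909 at an unadjusted p under 0.05) and 52 in the interaction. Since the numbers did not pair the samples, the block is a comparison only. Of the fold changes of members described in full, 781 alternative values stayed on their side of the threshold, 41 fell below it, 21 rose past it and 0 called values changed sign. Values not called changed sign for SLC2A1 in LNCaP-AI (-0.32 to 0.12 when each sample was left out) and for SLC2A3 in the interaction (-0.58 to 2.57). The interaction of PDK1, 0 in the main fit, lay on either side of 0 (-0.05 to 0.08 when each sample was left out). Depth limits CA9, ANKRD37, SLC2A3, ALDOC and CA12 in DU-145, where counts were lowest.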

Other observations

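Among the listed pathway genes outside the 39, several had larger changes with DOX than most members, and those named here were chosen after their values were seen. In DU-145, STC1 (the secreted hormone stanniocalcin) was at 49.4, 32.1 and 45.1 CPM with vehicle and 194, 178 and 156 CPM with DOX, a log2 fold change of 2.06 (SE 0.108, adjusted p = 2.25e-11). CITED2, which encodes an inhibitor of HIF that competes for its coactivators, rose by 1.69 (SE 0.0759, adjusted p = 3.17e-12) on the log2 scale. LOX, a collagen cross-linking enzyme, rose by 1.46 (SE 0.117, adjusted p = 6.28e-09). HKDC1, a further hexokinase gene, was at 5.96, 5.63 and 6.18 CPM with vehicle and 1.37, 1.01 and 1.05 CPM with DOX, a log2 fold change of -2.38 (SE 0.226, adjusted p = 6.27e-08). PDK4, a relative of PDK1, changed by -1.15 (SE 0.184, adjusted p = 3.48e-05). In LNCaP-AI the listed genes called included higher values for the pentose phosphate enzyme TALDO1 at 0.79 (SE 0.119, adjusted p = 0.0168) and for the mitochondrial pyruvate carrier subunit MPC2 at 0.98 (SE 0.156, adjusted p = 0.0182). STC1 was not called there; it had 1.01, 30.8 and 36.6 CPM with vehicle and 29.6, 0.519 and 0.171 CPM with DOX, and so was high in the same 3 samples as ADM and ANGPTL4.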
